A study of Homo sapiens with 3 samples.

Results

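Dense clusters of PRCC-TFE3 sites are stretches of the genome in which 10 or more binding regions lay close together. They were chosen by the measured peaks themselves. Peaks of the 2 ChIP replicates were merged where they had 1 bp or more in common. Merged regions with a peak of each replicate on chromosomes 1 to 22 and X, called shared regions, were kept and then joined to their neighbours across gaps of up to 12.5 kb. Of 70388 shared regions, 5119 (7.27%) fell into 392 dense clusters, out of 35004 joined clusters and single regions in all (1.12%). The number of regions, their spacing and the tags beneath them follow from this rule or from the same libraries and are therefore given as a description, without a test.

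The data came from HK-2 cells, an established human line of renal proximal tubule origin, with a doxycycline-inducible HA-PRCC-TFE3 transgene. All 3 samples, 2 HA-PRCC-TFE3 ChIP libraries and 1 input DNA library, were from cells given 0.2 µg/mL doxycycline for 24 h. The induced fusion protein was pulled down by its HA tag after digestion of the chromatin with micrococcal nuclease, and uninduced cells were not analysed here. The libraries held about 12235754 tags in replicate 1 and 7418533 tags in replicate 2, so counts in replicate 2 carry more counting error. The study describes the replicates as biological, and the labels do not say whether they came from separate cultures.

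TFE3 belongs to the MiT/TFE family of basic helix-loop-helix leucine zipper transcription factors, which bind as dimers to E-box motifs and activate lysosomal and autophagy genes when they enter the nucleus. In TFE3-rearranged renal cell carcinoma, fusion with a partner such as PRCC keeps the DNA-binding domain of TFE3 and leads to a constantly nuclear protein. Transcription factor sites often occur in groups along regulatory DNA, and groups joined at a gap of this length are the usual starting point for the definition of super-enhancers. Such a definition also needs a histone mark or coactivator signal, which was not analysed here. Positions are in hg19, the build named in the submitters' processing notes. An hg19 sequence and annotation were not used here, so the genes and motifs inside the clusters were not analysed here.

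The first question was how the clusters were distributed in size. Of the joined clusters, 20025 were single regions and 14587 held 2 to 9 regions. The dense clusters held from 10 to 37 regions, with a median of 12, and 234 of the 392 (59.7%) held 10, 11 or 12. Only 28 dense clusters held 20 or more regions. The threshold cut through a continuous distribution, with 152 clusters of 9 regions just outside it and 100 clusters of 10 regions just inside. Clusters of 9 regions had a median span of 36.8 kb (36808.5 bp), 207 tags in replicate 1 and 136.5 tags in replicate 2, and clusters of 10 regions had a median span of 39371.5 bp, 233 tags and 146 tags. These values changed gradually across the threshold, and 10 regions marked no break in them.

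**Figure D1:**
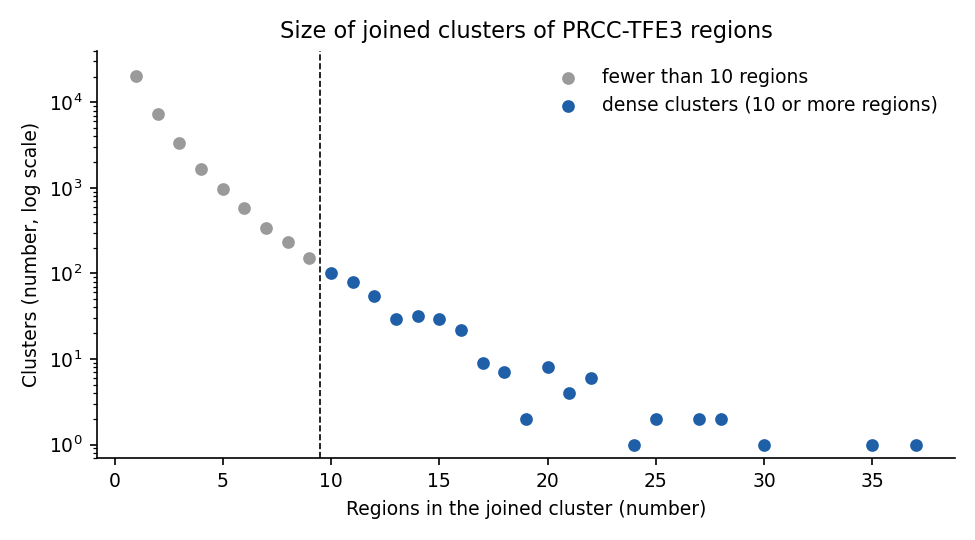
Number of joined clusters (vertical axis, log scale) by the number of regions in each (horizontal axis). Grey points are clusters of fewer than 10 regions and blue points are dense clusters, and the dashed line is the threshold. The numbers decline from 20025 single regions to 1 cluster of 37 regions, with no step at the threshold.

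Next, the extent of the dense clusters was examined. Their spans ranged from 13.4 kb to 128.7 kb, with a median of 48.9 kb and quartiles of 38.9 kb and 61.4 kb, and summed to 20.5 Mb. The regions themselves covered 2.50 Mb, or 12.2% of these spans, so most of each cluster lay between peaks. Across the 4727 gaps inside dense clusters, the median was 2714 bp and the quartiles were 841 bp and 6173 bp. In total, 41.8% of the gaps were under 2000 bp and 7.74% were over 10000 bp. In clusters of 2 to 9 regions, the median of 30657 gaps was 3217 bp.

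The outer limits of a cluster depended on the joining distance. Of the 771 gaps between a dense cluster and the next shared region, the smallest was 12508 bp and the median was 23153 bp. A total of 27 of these gaps were at most 13 kb and 129 were at most 15 kb, so some clusters ended only just at the chosen distance.

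The dense clusters with the most regions were then described one by one. The largest lay on chromosome 17 from 76268607 to 76397282 and held 37 regions over 128.7 kb. It contained 870 tags in replicate 1 and 562 tags in replicate 2. Relative to library size, these were 711 and 758 tags per 10000000. Its regions had median fold enrichments of 11.5 and 10.9 and maxima of 28.9 and 19.9, where fold enrichment is the narrowPeak value, given by the authors' peak caller relative to the background level it used. The region with the most tags contributed 5.80% of them, the lowest such share of any member, in the member with the most regions. At 9 of the 37 regions replicate 1 had no BED peak, and at 10 replicate 2 had none, so these regions contributed 0 tags.

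The cluster on chromosome 19 from 1166367 to 1280026 held 35 regions over 113.7 kb, with 723 tags in replicate 1 and 557 tags in replicate 2. By tags of both replicates together, its strongest region lay from 1180395 to 1180988. That region had 48 tags in each replicate although replicate 2 was the shallower library. Per 10000000 library tags, the whole cluster had 591 in replicate 1 and 751 in replicate 2. It was thus higher in replicate 2, and replicate 2 contributed 43.5% of its tags (95% Wilson interval, 40.8% to 46.2%).

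On chromosome 10, from 74003688 to 74124497, 30 regions spanned 120.8 kb with 916 and 635 tags. A pair of its regions held the most tags. The region from 74091235 to 74092269 had 83 tags in replicate 1 and 53 in replicate 2, and that from 74094437 to 74095155 had 75 and 61, so the order of the regions differed between the replicates. Only 2 dense clusters had more regions and only 1 had more tags. The highest tag number of all belonged to a cluster near the start of the chromosome 20 sequence, from 270886 to 397083, with 28 regions, 1188 tags in replicate 1 and 745 tags in replicate 2. Relative to library size, this cluster had 971 and 1004 tags per 10000000. By tags of both replicates together, its strongest region lay from 290153 to 291686. It held 121 tags from 2 BED peaks in replicate 1 and 55 tags from 1 BED peak in replicate 2. In replicate 2 the most tags, 65, were instead in the region from 342951 to 343645, which had 72 in replicate 1.

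Further clusters with many regions followed at smaller tag numbers. On chromosome 14, from 61959998 to 62061634, 28 regions held 682 and 408 tags. On chromosome 22, the cluster from 37871278 to 37970978 held 27 regions with 571 and 431 tags, and that from 30578183 to 30659671 held 25 regions with 574 and 383 tags. On chromosome 1, the cluster from 8064777 to 8178322 held 27 regions with 558 and 305 tags, and that from 16465235 to 16544192 held 25 regions with 530 and 372 tags. The remaining cluster among the 10 with the most regions lay on chromosome 10 from 102745245 to 102827946, with 24 regions, 502 tags and 355 tags. In all 10, the median fold enrichment of the regions was between 9.18 and 13.8 in replicate 1 and between 7.70 and 11.4 in replicate 2.

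Of the 10 clusters with the most tags, 6 were also among the 10 with the most regions. The other 4 had between 20 and 22 regions. On chromosome 20, the cluster from 52482286 to 52577808 held 22 regions with 756 and 467 tags, at median fold enrichments of 16.6 and 14.01. On chromosome 9, the cluster from 114754834 to 114837409 held 20 regions with 705 and 463 tags, at 18.6 and 14.2. The clusters on chromosome 17 from 8021488 to 8099691 and on chromosome 12 from 125165811 to 125260619 held 22 regions each. The former had 647 and 413 tags and the latter 632 and 414. Thus all 4 had median fold enrichments above 12.6 in replicate 1 and above 9.30 in replicate 2.

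**Figure D2:**
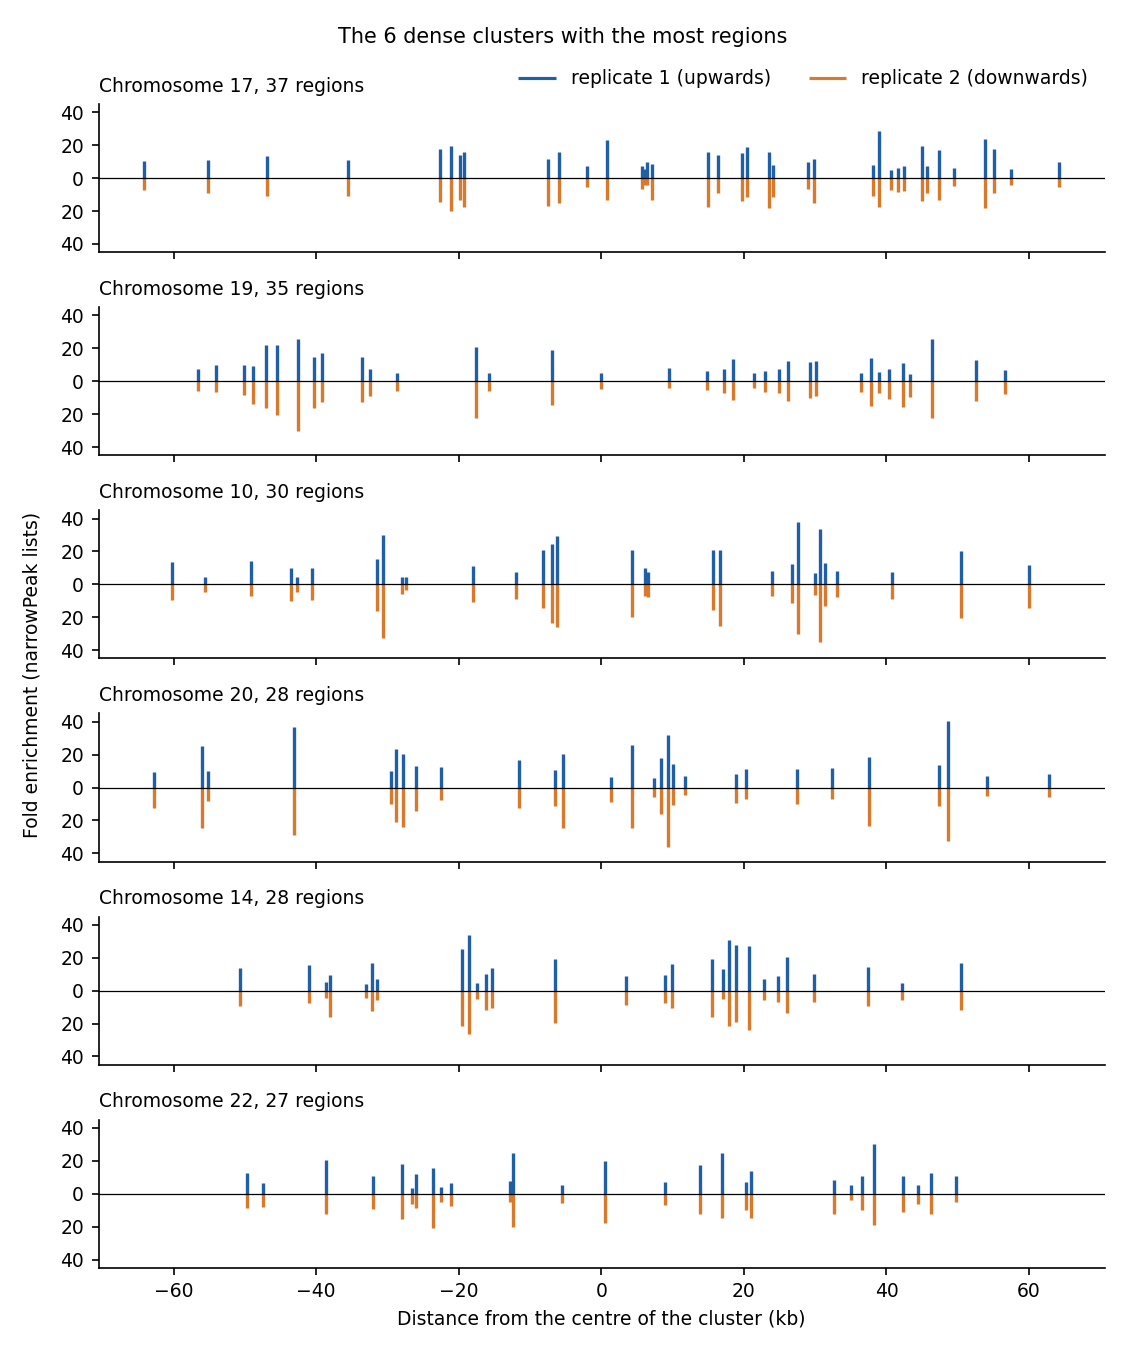
Positions of the regions in the 6 dense clusters with the most regions (horizontal axis, distance from the centre of the cluster in kb) and their fold enrichment in replicate 1 (blue, upwards) and replicate 2 (orange, downwards). Tall and short bars are interspersed within each cluster. The highest bar of replicate 1 in the chromosome 17 cluster reaches 28.9.

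Across all dense clusters, the number of tags ranged from 20 to 1188 in replicate 1 (median, 281) and from 0 to 745 in replicate 2 (median, 186). The number of regions and the number of tags had a Spearman's rho of 0.676 in replicate 1 and 0.659 in replicate 2 over the 392 members, which partly holds by construction because each region adds its tags. In contrast, the number of regions and the median fold enrichment had a rho of 0.0865 in replicate 1 and 0.106 in replicate 2. The rank relation with strength was thus much weaker than that with tags. The most tags per region were found on chromosome 10 from 73595789 to 73631446, where 11 regions held 470 and 305 tags, or 70.5 tags per region in both libraries together. The median member had 38.3.

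To see whether single regions dominated the clusters, the strongest region of each was compared with the rest. It contributed a median of 18.5% of the tags of its cluster in replicate 1 and 19.9% in replicate 2. The region with the most tags was the same in both replicates in 253 of 392 members (64.5%), where a tie within a replicate, present in 36 members, counted as the same if any tied region matched. By tags of both replicates together, it lay in the central 50% of the span in 48.5% of members (the first was taken in 15 members with a tie), and 45.5% of all member regions lay there. The 784 regions at the ends of clusters had a median fold enrichment of 10.7 in replicate 1 and 8.98 in replicate 2, and the 4335 regions between them had 10.6 and 8.98. No gradient in strength from the ends towards the middle was thus apparent in these medians. In 64 members the strongest region held over 25% of the tags. The most uneven member apart from the one with the fewest tags lay on chromosome 1 from 145111997 to 145165375. There, a single region of 15 held 151 of 235 tags in replicate 1 and 93 of 154 tags in replicate 2. However, 8 of its regions had no BED peak of replicate 1 and 9 had none of replicate 2. All these shares count a region without a BED peak as 0 tags, which raises the share of the strongest region.

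The strength of regions inside dense clusters was then set beside that of other regions. The median fold enrichment in dense clusters was 10.6 in replicate 1 and 8.98 in replicate 2. In clusters of 2 to 9 regions these values were 10.2 and 8.34, and in single regions they were 9.52 and 7.55. The quartiles overlapped widely, from 7.18 to 16.3 in dense clusters and from 6.95 to 13.4 in single regions of replicate 1. Regions in dense clusters were also wider, with a median of 424 bp. This median was 381 bp in clusters of 2 to 9 regions and 338 bp in single regions. The order of the fold enrichment medians was the same in both replicates.

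Most of the strongest sites lay outside dense clusters, which held a somewhat larger share of them than of all shared regions. A fold enrichment of at least 27.8 in both replicates marked the strongest 1% of shared regions, 710 in number. Of these, 84 (11.8%; 95% Wilson interval, 9.66% to 14.4%) lay in 71 dense clusters, compared with 7.27% of all shared regions. Only 1 of the 10 strongest regions lay in a dense cluster. At the other end, 6.82% of the weakest 10% of regions did.

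Both replicates were compared across the members. The summed tags of the 392 dense clusters had a Spearman's rho of 0.917 between the replicates, where both values rise with the number of regions and the same positions are counted. Over the 5119 single member regions, rho of fold enrichment was 0.840, and over all 70388 shared regions it was 0.782. The replicates share 1 input library, and a peak in each was required by the rule. Replicate 2 contributed 39.9% of the tags in dense clusters (95% Wilson interval, 39.7% to 40.1%), 38.8% of those in all shared regions (38.8% to 38.9%) and 37.7% of the tags of both libraries.

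The split between replicates varied among members. It lay between 29.4% and 50.6% replicate 2 tags in all but 1 member. The Wilson interval of a member held the pooled share of all dense clusters, 39.9%, in 324 cases, lay above it in 37 and lay below it in 31. Some intervals miss a pooled share by counting error alone. The same count was not made for smaller clusters, and whether members varied beyond counting error was not tested. The highest share was found on chromosome 11 from 64602769 to 64668055, with 166 tags in replicate 1 and 170 in replicate 2. The lowest share apart from the member with the fewest tags was found on chromosome 16 from 4514147 to 4550625, with 202 and 84 tags. Per 10000000 library tags these members had 136 and 229, and 165 and 113, respectively. Their values thus differed between the replicates in opposite directions. A region without a BED peak of a replicate added 0 tags to it, so the split also depends on the BED lists. In the chromosome 11 member, 4 of 14 regions had no BED peak of replicate 1, and 1 had none of replicate 2.

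**Figure D3:**
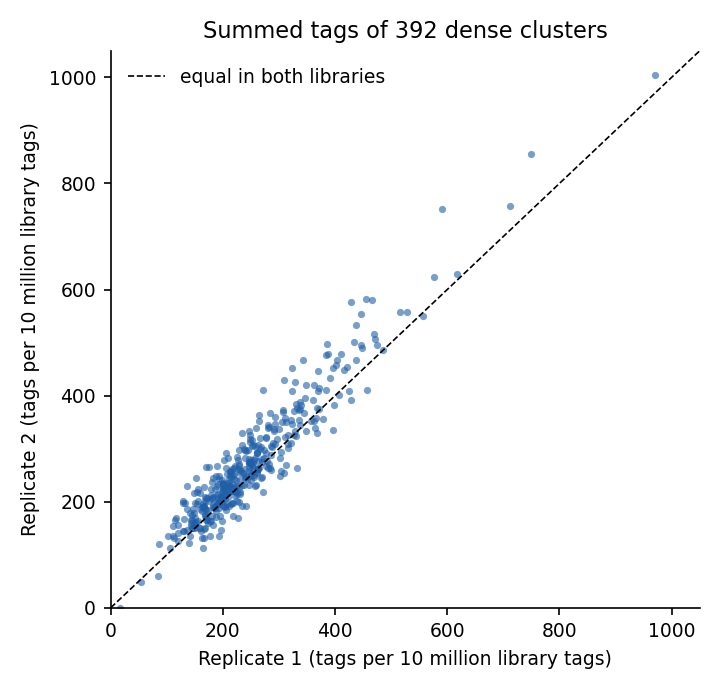
Summed tags of each of the 392 dense clusters per 10000000 library tags in replicate 1 (horizontal axis) and replicate 2 (vertical axis). Each point is a cluster and the dashed line marks equal values. Most points lie near or above the line, and the upper right point is the cluster on chromosome 20 with 971 and 1004 tags per 10000000.

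Peaks of only 1 replicate were also present within the spans. The spans of the dense clusters held 6500 merged regions, of which 5119 (78.8%; 95% Wilson interval, 77.7% to 79.7%) were shared. Replicate 1 alone gave 1058 of them (16.3%) and replicate 2 alone gave 323 (4.97%). Over the whole genome, 59.8% of merged regions were shared, 32.2% were found in replicate 1 alone and 7.95% in replicate 2 alone. Since the spans were laid out around shared regions, a higher shared fraction follows from the rule.

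The tag numbers above were taken from the BED lists, and not every member region had a BED peak. In dense clusters, 4036 of 5119 regions (78.8%; 95% Wilson interval, 77.7% to 79.9%) overlapped a BED peak of replicate 1 and 3827 (74.8%; 73.6% to 75.9%) overlapped one of replicate 2. Over all shared regions the percentages were 87.4% and 81.2%. Regions without a BED peak contributed 0 tags, so the summed tags of dense clusters are lower bounds. No BED peak of either replicate was present at 810 member regions (15.8%), compared with 8.62% of all shared regions. In 34 members every region had a BED peak of replicate 1, and in 18 members every region had one of replicate 2.

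This percentage declined with the size of the cluster, whereas fold enrichment did not. In replicate 1 it was 91.9% in single regions, 82.7% in clusters of 5 to 9 regions, 79.2% in those of 10 to 14 and 77.2% in those of 20 to 37. In replicate 2 the values were 85.1%, 77.5%, 75.6% and 72.2%. Over the same steps the median fold enrichment of replicate 1 was 9.52, 10.5, 10.5 and 11.4. In replicate 2 it was 7.55, 8.42, 8.96 and 9.52. The source of the lower percentage was not tested. When the other regions were weighted to the fold enrichment of the dense clusters, 88.5% of them had a BED peak of replicate 1 and 84.0% had one of replicate 2, compared with 78.8% and 74.8% in dense clusters.

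The difference was found among regions of low and moderate fold enrichment. In the third decile, 65.9% of regions in dense clusters (61.4% to 70.1%) and 88.6% of other regions (87.8% to 89.4%) had a BED peak of replicate 1. In replicate 2 these values were 49.6% (44.6% to 54.6%) and 80.1% (79.2% to 81.1%). In the highest decile, all regions in dense clusters had a BED peak, as did 99.2% of other regions in replicate 1 and 99.04% in replicate 2. The intervals of both classes did not overlap in deciles 1 to 7 of either replicate, where dense clusters had the lower values. They also did not overlap in decile 10, where dense clusters had the slightly higher values. These intervals cover counting error only, regions of 1 cluster are not independent, and no test was made.

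**Figure D4:**
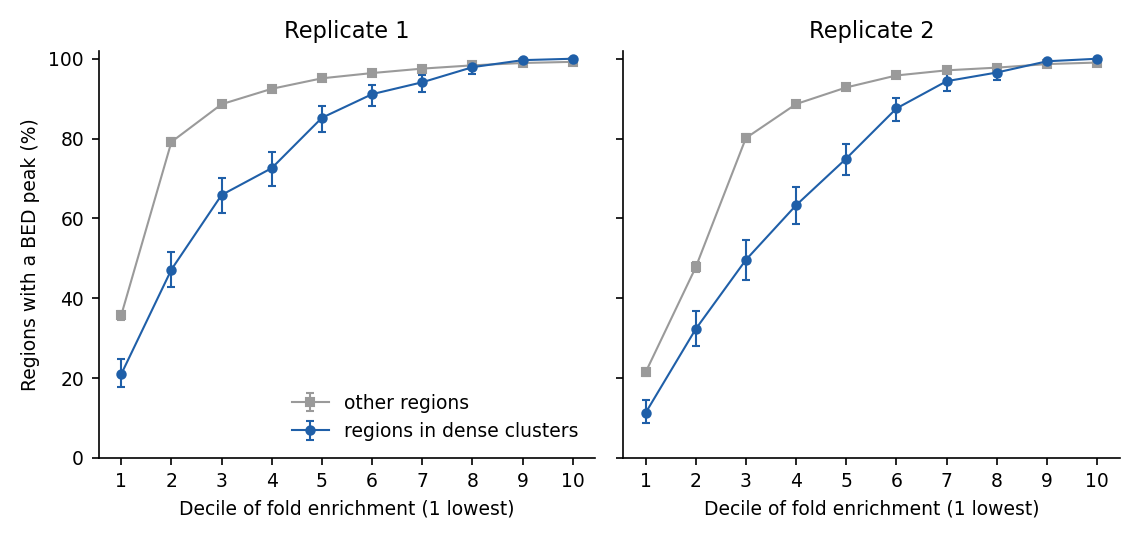
Percentage of shared regions with a BED peak (vertical axis) by decile of narrowPeak fold enrichment (horizontal axis), for replicate 1 (left) and replicate 2 (right). Blue circles are regions in dense clusters, grey squares are all other regions, and bars are 95% Wilson intervals for counting error. The blue values run below the grey ones in the lower deciles, for example 65.9% against 88.6% in decile 3 of replicate 1. In the highest decile they lie slightly above them.

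The BED lists also gave each peak a fold over its local background. No peak in either list had a local fold below 4. Where a BED peak was present, the median local fold was 9.27 in dense clusters of replicate 1 and 10.1 in those of replicate 2. In clusters of 2 to 9 regions it was 12.1 and 13.2, and in single regions it was 19.2 and 20.9. A local fold under 8 was found at 39.5% of such regions in dense clusters and at 3.34% of single regions in replicate 1, and at 34.5% and 0.986% in replicate 2. In clusters of 2 to 9 regions these shares were 23.7% in replicate 1 and 18.1% in replicate 2. The local fold declined gradually with cluster size, without a break at the threshold. Its medians were 10.6 and 11.4 in clusters of 5 to 9 regions and 9.45 and 10.4 in those of 10 to 14. Dense clusters were chosen for close neighbours, so the local fold is not independent of the rule. Among regions with a BED peak, the median number of tags was 26 and 18 in dense clusters. It was 22 and 14 in clusters of 2 to 9 regions and 19 and 12 in single regions. Such regions were 78.8% and 74.8% of those in dense clusters, and 91.9% and 85.1% of single regions. The part of the local fold in the missing BED peaks was not tested.

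Dense clusters were unevenly distributed over the chromosomes. Chromosome 1 held the most, with 57, followed by chromosome 19 with 41, chromosome 17 with 36 and chromosome 20 with 27. As a share of the shared regions of the chromosome, chromosome 19 was highest at 17.4% (95% Wilson interval, 16.1% to 18.8%). Chromosomes 22, 20 and 17 followed with 16.7% (14.99% to 18.6%), 16.3% (14.8% to 17.9%) and 13.6% (12.5% to 14.7%). The intervals of chromosomes 19, 22 and 20 overlapped, so their order was not resolved. The lowest shares were 1.54% on chromosome 4 (1.19% to 1.99%) and 2.24% on chromosome X (1.63% to 3.07%). In total, the interval lay above the overall 7.27% on 8 chromosomes and below it on 14, and that of chromosome 21 contained it. These intervals cover counting error only, and regions of 1 cluster are not independent.

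The share in dense clusters was set beside the density of shared regions along the chromosome. This density was 51.7 shared regions per Mb on chromosome 19, 46.7 on chromosome 22 and 45.3 on chromosome 17, and it was 10.7 on chromosome X and 12.2 on chromosome 13. The order of the shares was not that of the densities throughout. Chromosome 4 had 19.4 regions per Mb and a share of 1.54%, whereas chromosome 9 had 19.7 and 8.65%. Chromosome 20 had 36.7 regions per Mb, fewer than chromosome 17, and a higher share. Over the 23 chromosomes, Spearman's rho between density and share was 0.803, and both measures come from the same regions. The mean number of input tags per BED peak was 1.37 on chromosome 20 and 0.440 on chromosome 13, and its rho with the share in dense clusters was 0.662. The part of the input signal in the distribution was not tested.

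**Figure D5:**
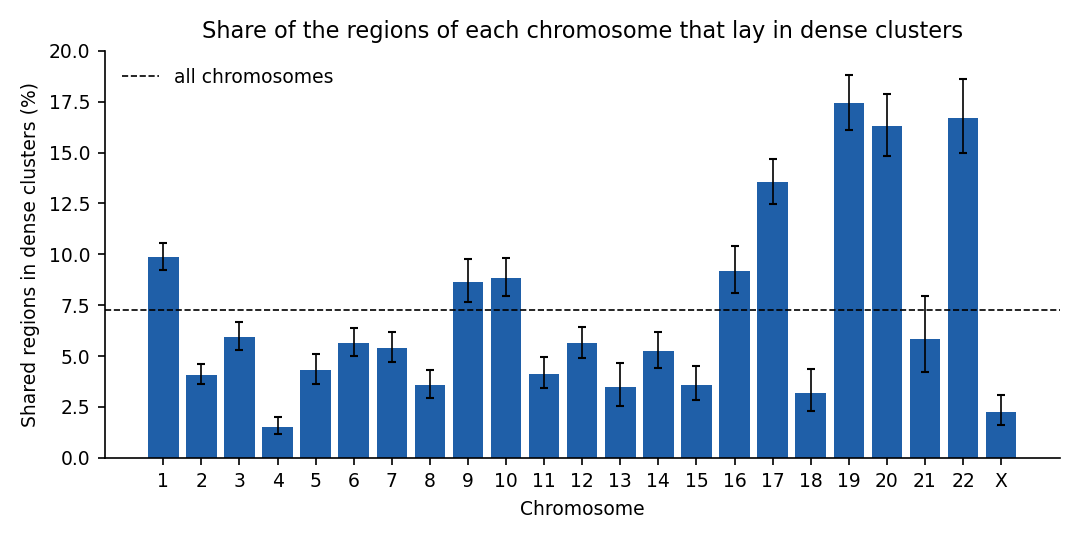
Percentage of the shared regions of each chromosome that lay in dense clusters (bars, with 95% Wilson intervals for counting error), and the value over all chromosomes (dashed line, 7.27%). Chromosomes 17, 19, 20 and 22 stand highest and chromosome 4 is lowest at 1.54%.

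Finally, input DNA was examined within the dense clusters. Input tags were sparse, with a mean of 0.845 ± 0.0191 (SE, 4108 peaks) per BED peak of replicate 1 and 0.866 ± 0.0202 (SE, 3912 peaks) per BED peak of replicate 2. Over all shared regions these means were 0.770 and 0.808, so the means in dense clusters were slightly higher. The SE covers the spread among peaks only, and peaks of 1 cluster are not independent. The peaks were called against this same input library, so it is no independent measure. Of the BED peaks in dense clusters, 47.4% and 46.6% had 0 input tags, compared with 50.3% and 49.1% over all shared regions. An input peak was overlapped by 3 of the 392 dense clusters (0.765%; 95% Wilson interval, 0.261% to 2.23%) and by 0.0828% of all joined clusters and single regions. A span of many kilobases is more easily overlapped than a single region, so these shares are not on an equal footing. In the cluster on chromosome 3 from 134013199 to 134097964, the input peak touched none of the 22 shared regions. In the other cases, on chromosome 17 from 33406618 to 33478422 and from 41465515 to 41546924, it did touch a shared region. These members held 13 and 18 regions, and in each of them the region at the input peak was the one with the most tags. In the former it held 82 tags in replicate 1 and 52 in replicate 2, or 26.3% of the tags of the cluster, at fold enrichments of 1.78 and 2.24. In the latter it held 149 and 112 tags, or 27.4%, at 4.73 and 6.22. The summed tags of both clusters thus include signal at positions with an input peak.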

How the data were processed

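The submitters' processing notes name hg19. On 14 of 23 chromosomes the last peak ended beyond the hg38 end, so hg38 annotation was not used and no coordinates were converted. The authors deposited narrowPeak lists called for each replicate separately, with a fold enrichment ratio, −log10 p and −log10 q values (lowest −log10 q, 1.31 and 1.35), a score of 10 times the −log10 q and a summit position. MACS, run through Strand NGS against the input, is named in the methods, with a stringent p-value threshold for binding sites. The lists were used here as deposited, down to the lowest −log10 q values given above. The shared regions may therefore differ from the study's own set of sites. The deposited BED lists have HOMER findPeaks column order with displaced header names and were read by position: a score, a tag count (column 8), a signal per 10000000 library tags, a scaled input signal, fold ratios and p-values against input and the local background, and a focus fraction. The p-values, score and focus fraction per the file headers were not used. The aligner is not given in the sources used here.

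Peak lists were merged and joined with Python 3.11.15, numpy 2.4.6 and pandas 2.3.3, and intervals came from scipy 1.17.1. The joining step was tested on simulated data. Library totals are summed tags divided by summed scaled signal. Input tags came from tags divided by fold over input, where 100% of values were whole within 0.1 tags in both lists, with 0 tags deposited as a smaller constant. A region took the highest fold of its peaks and the tags of all BED peaks that overlapped it. Wilson intervals (95%) reflect counting error and nothing else. The clusters named were the 10 with the most regions and the 10 with the most tags. Other clusters named, as extremes of a measure, were chosen after their values were seen. The members and measures were chosen with earlier results of these data known. Gene lists, start sites and E-boxes were planned and were not analysed here.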

Additional observations from a re-analysis of the deposited data

How the results depend on the processing

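The number and extent of dense clusters depended on the rule. Among 74 values under alternatives, 49 moved beyond a limit and 25 did not. The limit was 1.5 times for the number of clusters, the 95% Wilson interval for the share of regions and the replicate 2 share, and 1 SD between replicates for the others, so it was narrow for shares and wide for the number. Leaving out 1 replicate, so that peaks of the other alone were used, gave 635 to 1220 clusters with 10.5% to 16.5% of the regions. The median number of regions was then 12 to 13, the median span 46402 to 49032.5 bp, the share of BED tags 10.3% to 17.9%, the replicate 2 share of tags 37.6% to 40.2%, and input tags per BED peak 0.862 to 0.868. The higher cluster number came from the deeper replicate 1.

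With a gap of 5 kb there were 26 clusters (0.405% of regions, median 11 regions, 21603.5 bp, 0.407% of BED tags and 0.776 input tags per peak). A gap of 25 kb gave 1197 (27.2%, 14 regions, 98054 bp, 26.7% of tags, 39.5% of them from replicate 2). A minimum of 8 regions gave 779 (11.9%, 10 regions, 40512 bp, 11.6% of tags), and 15 regions gave 97 (2.51%, 16 regions, 72145 bp, 2.56% of tags, 0.878 input tags). With q under 1e-05 there were 210 (4.602%, 4.28% of tags, 40.3% from replicate 2), and 208 of the 392 members overlapped one of them. The BED lists gave 99 (2.13%, 11 regions, 54749 bp, 2.24% of tags, 40.8% from replicate 2, 0.945 input tags) and recovered 93 members and 8 of the 10 with the most regions. Reciprocal overlap of 50% gave 281 clusters and lowered the share of regions to 5.42% and of tags to 5.10%. Leaving out the members that overlapped an input peak moved input tags to 0.839. Averaged over replicates, the median fold enrichment was 9.81 in the narrowPeak lists, 60.5 as fold over input in the BED lists, and 13.4 among regions without input tags. The setting for regions with 1 peak of a replicate was chosen after the data were examined.

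The alternatives for E-boxes and start sites were not run. No paired analysis was possible because no result rests on a test and only the ChIP labels are numbered. With 7418533 tags in replicate 2, a region missing from its list cannot be taken as unbound.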

Other observations

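Some dense clusters lay beside each other. The nearest neighbouring member was at a median of 679694 bp, and 54 of 392 members (13.8%) lay within 100 kb of another. Joined at that distance, members formed 22 pairs, 2 groups of 3 and 1 group of 4. The group of 4 lay on chromosome 22 from 37871278 to 38218367 and held 64 shared regions, 1404 tags in replicate 1 and 972 tags in replicate 2. The groups of 3 lay on chromosome 19 from 18385575 to 18615664, with 46 regions, and on chromosome 3 from 197024724 to 197248273, with 36 regions.

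A single member differed from the others in its tags. On chromosome 19, from 50600485 to 50651690, 10 shared regions had a median fold enrichment of 4.46 in replicate 1 and 5.12 in replicate 2. The BED lists, however, placed 20 tags in 1 of these regions in replicate 1 and 0 tags in replicate 2. In order along the chromosome, the steps between successive starts were 683, 3029, 3021, 3034, 10742, 5365, 5344, 8687 and 10767 bp. Several of these steps were close to each other in length, and those of 683 and 8687 bp were not close to any other. This member had the fewest tags of all, and its place in the set depends on the narrowPeak lists alone. The source of the similar steps was not tested.

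The most compact member lay on chromosome 14 from 23442837 to 23456195, with 10 regions over 13.4 kb, or 7.49 regions per 10 kb. It held 103 tags in replicate 1 and 45 in replicate 2, at median fold enrichments of 6.61 and 5.86. The next most compact, on chromosome 20 from 49341296 to 49363197, had 5.02 regions per 10 kb with 265 and 194 tags.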
